A study of Mus musculus with 15 samples.

Results

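The polo-like kinase genes Plk2, Plk3, Plk4 and Plk5 were followed across RNA-seq libraries of mouse prefrontal forebrain cortex. All 4 were found by their symbols among 21878 rows of the deposited tables, and all 4 were among the 12728 genes that reached 1 FPKM (read fragments scaled to gene length and library depth) in at least 3 libraries. The set was selected on the measured levels of Plk5, one of the genes with the largest falls in the knockout, so the genotype difference in water is given as a description without a test for every member, and so is the genotype difference under nicotine for Plk5. There were 15 libraries in 4 groups. WT-B was wildtype C57BL6/J mice that drank water (4 libraries), WT-N was the same strain given nicotine (4 libraries), DKO-B was the conditional Presenilin 1/2 double knockout on water (4 libraries), and DKO-N was that knockout given nicotine (3 libraries). Nicotine was in the drinking water at 100 µg/ml for 3 months, starting at 8 months of age, and all groups had been through behaviour tests before the tissue was taken. The sources used here do not name the Cre driver of the conditional knockout. Separate mice per library are not stated in the labels, so p-values measure only the spread between these libraries, which may be technical.

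Polo-like kinases are serine/threonine kinases that carry a kinase domain followed by polo boxes, which dock the protein onto partners. Plk1 drives mitosis and Plk4 starts centriole duplication. Plk2 and Plk3, first named Snk and Fnk, are early response genes that neurons switch on with synaptic activity. Plk2 is known to phosphorylate synaptic Ras and Rap regulators, among them Sipa1l1 (SPAR), and alpha-synuclein. Plk5 is a brain-enriched member that has been tied to neuron differentiation, and its human form lacks most of the kinase domain.

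Total reads in genes, recovered from the FPKM values, ranged from 16334904 to 19469215 per library. Psen2, one of the targeted genes, was at 6.43 ± 0.77 FPKM in WT-B and 1.51 ± 0.179 in DKO-B (SD, n = 4 each), and at 6.48 ± 0.571 in WT-N (SD, n = 4) and 1.57 ± 0.2 in DKO-N (SD, n = 3). Y-linked transcripts did not go with the group labels evenly. The summed level of Ddx3y, Eif2s3y, Kdm5d and Uty was 29.0 to 33.0 FPKM in WT-B, 24.3 to 33.0 in DKO-B and 0.0909 to 0.144 in WT-N. In DKO-N it was 35.9, 0.233 and 36.6 FPKM in replicates 1, 2 and 3. Nicotine and Y-linked expression therefore cannot be told apart in the wild type. The genotype comparison under nicotine and the interaction also differ in Y-linked expression. So does the comparison of nicotine with water in the knockout, through DKO-N replicate 2 alone. The 10 excitatory neuron markers were all measured and none was at 0. They summed to 1514 to 1555 FPKM in WT-B, 1517 to 1606 in WT-N, 1194 to 1338 in DKO-B and 1254 to 1346 in DKO-N. The 7 astrocyte markers and 7 microglial markers were also present in all groups, so the cells that hold each kinase transcript cannot be read from this bulk tissue, and fewer cells of a type and less RNA per cell cannot be told apart.

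Plk2 was by far the most abundant member and Plk4 the least, on the FPKM scale that corrects for gene length. In WT-B, Plk2 was at 76.9 ± 3.73 FPKM, Plk3 at 7.10 ± 0.562, Plk5 at 5.15 ± 0.42 and Plk4 at 1.15 ± 0.124 (SD, n = 4 each). Averaged over all 15 libraries, Plk2 lay above 93.8% of the tested genes, Plk3 above 37.5%, Plk5 above 26.6% and Plk4 above 4.63%. Plk1, which is not one of the 4 genes, ranged from 0.221 to 0.776 FPKM (8 to 31 reads) and was not tested. The order of Plk3 and Plk5 was not the same in every group. In WT-B every Plk3 value (6.52 to 7.69 FPKM) lay above every Plk5 value (4.57 to 5.55). In WT-N the 2 genes overlapped, at 5.50 to 6.34 FPKM for Plk3 and 5.40 to 6.70 for Plk5, with a Plk3 to Plk5 ratio of 1.01 ± 0.0649 (SD, n = 4). In the knockout the ratio was 2.64 ± 0.711 in DKO-B (SD, n = 4) and 2.52 ± 0.353 in DKO-N (SD, n = 3). At the low end, Plk5 (1.15 to 2.41 FPKM) overlapped Plk4 (0.981 to 1.44) in DKO-B.

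**Figure D1:**
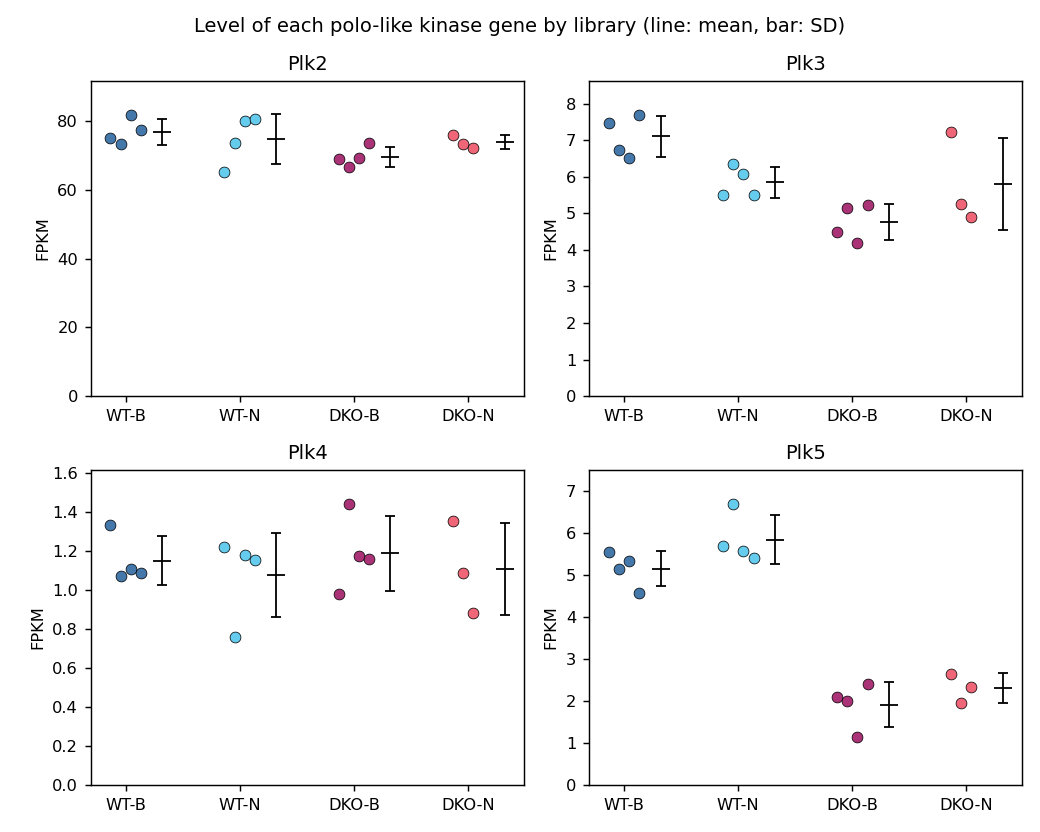
Level of Plk2, Plk3, Plk4 and Plk5 in FPKM (vertical axes, each starting at 0) for the 4 groups (horizontal axes), with 1 point per library and the group mean and SD beside it. Plk5 separates the genotypes in both drinking conditions, Plk3 is highest in WT-B and lowest in DKO-B with 1 DKO-N library at 7.24 FPKM, and Plk2 and Plk4 differ little between groups.

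The 4 genes lie on 4 chromosomes in the GRCm38.p6 build. Plk2 (gene 20620) is at chr13:110395044-110400844 on the plus strand, Plk3 (gene 12795) at chr4:117128655-117133963 on the minus strand, Plk4 (gene 20873) at chr3:40799951-40816883 on the plus strand and Plk5 (gene 216166) at chr10:80356459-80365489 on the plus strand. The 3′ end of Plk3 overlaps the end of Tctex1d4 (117124543 to 117128738), which was at 0.115 ± 0.0246 FPKM in WT-B and 0.419 ± 0.202 in DKO-B (SD, n = 4 each), a difference in the opposite direction to that of Plk3. No gene in the RefSeq table overlapped Plk2, Plk4 or Plk5. The measured neighbours of Plk5 were Adamtsl5, which rose in DKO-B from 2.16 ± 0.199 to 2.92 ± 0.484 FPKM (log2 difference 0.30, limma adjusted p = 0.0131), and Mex3d, at 3.74 ± 0.358 and 3.46 ± 0.386 (limma adjusted p = 0.368). The neighbours of Plk4, Hspa4l and Mfsd8, were at 22.3 ± 0.968 and 5.13 ± 0.193 FPKM in WT-B and 21.1 ± 1.33 and 5.15 ± 0.519 in DKO-B, without a call.

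The sequence upstream of each gene was examined because Plk2 and Plk3 are known as genes induced through calcium and cAMP signals, whereas Plk5 showed the largest genotype difference. The windows hold the 250 bases before the RefSeq start (GRCm38.p6), read 5′ to 3′ on the strand of the gene, with every TGACG on either strand in capitals. TGACG is the core of the cAMP response element, whose full palindrome is TGACGTCA.
Plk2 (chr13:110394794-110395043, plus strand): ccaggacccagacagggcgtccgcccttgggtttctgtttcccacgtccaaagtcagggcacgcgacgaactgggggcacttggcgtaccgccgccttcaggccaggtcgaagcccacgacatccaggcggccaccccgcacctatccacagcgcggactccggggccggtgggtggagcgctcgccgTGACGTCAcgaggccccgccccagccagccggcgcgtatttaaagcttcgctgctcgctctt
Plk3 (chr4:117133964-117134213, minus strand): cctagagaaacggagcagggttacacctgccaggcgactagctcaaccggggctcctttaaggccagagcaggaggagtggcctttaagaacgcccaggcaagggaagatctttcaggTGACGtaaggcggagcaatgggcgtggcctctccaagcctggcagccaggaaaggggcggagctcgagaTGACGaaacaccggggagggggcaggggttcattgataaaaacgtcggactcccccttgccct
Plk5 (chr10:80356209-80356458, plus strand): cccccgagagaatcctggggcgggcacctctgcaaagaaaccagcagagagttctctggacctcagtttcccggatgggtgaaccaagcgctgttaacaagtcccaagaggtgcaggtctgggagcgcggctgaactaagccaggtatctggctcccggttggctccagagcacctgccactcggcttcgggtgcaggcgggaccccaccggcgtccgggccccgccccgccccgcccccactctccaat
The Plk2 window held the full TGACGTCA, starting 62 bases before the gene, a motif found in 1.55% of 32851 promoter windows of the same length. Its 2 TGACG matches are the overlapping arms of that palindrome. Plk3 held TGACG at 132 and 63 bases before the start, outside the full palindrome, and Plk4 held 1 match at 30 bases. The Plk5 window held none. TGACG occurred in 17.8% of all windows. The GC box GGGCGG, found in 32.7% of windows, occurred 4 times in Plk5, at 233, 28, 23 and 18 bases before the start, where neighbouring matches of the last 3 share a base. It occurred 2 times in Plk2 and 1 time in Plk3, and in Plk4 these letters were not found. GTGGGAA, the core of sites for the Notch effector RBPJ, was found at 212 bases before Plk2 and in 5.42% of all windows, and not in the other 3. The E-box CACGTG was in none of the 4 windows and in 6.02% of all windows. The same held for the AP-1 motif TGANTCA (6.75% of all windows), for the TATA motif TATAAA (12.4%) and for the CArG box (1.47%). Both strands were searched for each motif. The windows of Plk2, Plk3, Plk4 and Plk5 had a GC content of 68.4%, 60%, 47.2% and 65.6%, against a median of 52.4% over all windows. A match describes letters and does not show a bound site.

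Plk5 was lower in every knockout library than in every wild-type library, with and without nicotine. It was at 5.55, 5.13, 5.33 and 4.57 FPKM in the WT-B libraries and at 2.09, 1.99, 1.15 and 2.41 in the DKO-B libraries. It was at 5.69, 6.70, 5.56 and 5.40 FPKM in WT-N and at 2.64, 1.94 and 2.32 in DKO-N. The highest knockout value was thus below the lowest wild-type value. The DKO-B mean of 1.91 ± 0.54 FPKM (SD, n = 4) was 37.1% of the WT-B mean, and the DKO-N mean of 2.30 ± 0.35 (SD, n = 3) was 39.4% of the WT-N mean of 5.84 ± 0.584 (SD, n = 4). In log2(FPKM + 1), a scale on which changes of low genes look smaller than they are, the differences were -1.10 (SE 0.11) and -1.05 (SE 0.12), the 12th and 10th lowest of 12728 genes. Of all tested genes, 0.11% were at least 2-fold lower on this scale in DKO-B than in WT-B, and 0.0943% in DKO-N than in WT-N. Groups that did not overlap, with the knockout lower, were found for 12.5% of genes in water and 11.8% under nicotine. These values chose the gene and support nothing further. Among the excitatory markers, with 6 of 10 falling and none rising in water, Camk2a was at 517 ± 33.2 FPKM in DKO-B against 725 ± 8.43 in WT-B (limma adjusted p = 6.64e-07), Lamp5 fell from 98.4 ± 3.29 to 51.7 ± 9.38 (limma adjusted p = 2.02e-06), and Slc17a7, the vesicular glutamate transporter, was at 569 ± 15 against 552 ± 19.7 without a call. Of all tested genes 12.4% fell and 25.5% rose in water. The part of the excitatory markers in the Plk5 difference was not tested.

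Plk3 was lower in DKO-B than in WT-B, and the genotypes overlapped under nicotine. Its values were 7.46, 6.74, 6.52 and 7.69 FPKM in WT-B and 4.49, 5.14, 4.20 and 5.23 in DKO-B, without overlap. The DKO-B mean of 4.77 ± 0.499 FPKM was 67.1% of the WT-B mean of 7.10 ± 0.562 (SD, n = 4 each), a difference of -0.49 (SE 0.09) on the log2 scale. Such a separation was seen for the 12.5% of genes given above, and 12.4% of all tested genes fell by the adjusted test. In WT-N Plk3 was at 5.50, 6.34, 6.08 and 5.50 FPKM, and in DKO-N at 7.24, 5.27 and 4.91, so that 1 DKO-N library lay above all WT-N libraries and the other 2 below them. The genotype difference under nicotine was -0.02 (95% interval -0.23 to 0.19, limma adjusted p = 0.873).

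Plk2 and Plk4 differed little between genotypes. Plk2 was at 75.1, 73.2, 81.8 and 77.6 FPKM in WT-B and at 68.9, 66.7, 69.3 and 73.6 in DKO-B, where 1 knockout library overlapped the wild type. The DKO-B mean of 69.6 ± 2.86 FPKM (SD, n = 4) was 90.5% of the WT-B mean, a log2 difference of -0.14 (SE 0.06). Under nicotine Plk2 was at 65.1, 73.7, 80.0 and 80.5 FPKM in WT-N and at 76.1, 73.3 and 72.2 in DKO-N, inside the wild-type range. That difference was -0.01 (95% interval -0.14 to 0.12, limma adjusted p = 0.89). Plk4 was at 1.34, 1.07, 1.11 and 1.09 FPKM in WT-B, 0.981, 1.44, 1.17 and 1.16 in DKO-B, 1.22, 0.759, 1.18 and 1.15 in WT-N and 1.36, 1.09 and 0.884 in DKO-N, with overlap in every comparison. Its genotype difference under nicotine was 0.02 (95% interval -0.19 to 0.23, limma adjusted p = 0.898). Of the 3 members tested in that comparison 0 were called by limma, 0 had an unadjusted p under 0.05 and 0 were called by limma voom on the recovered reads, where 35.7% of all tested genes were called by limma and 45.2% had such an unadjusted p.

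**Figure D2:**
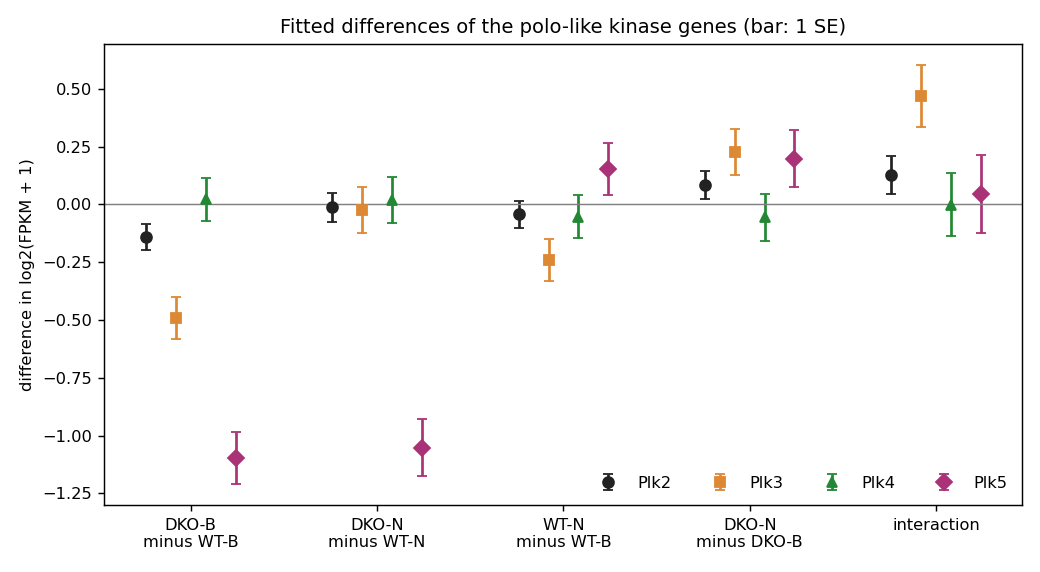
Fitted differences in log2(FPKM + 1) (vertical axis) of the 4 genes in the 5 comparisons (horizontal axis), each point a fitted value and each bar 1 standard error. Plk5 is at -1.10 and -1.05 in the genotype comparisons, and Plk3 is at -0.49 in water, -0.02 under nicotine and 0.47 for the interaction.

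The comparisons of nicotine with water ask whether the drug shifted these kinases in either genotype. No member was called. In the wild type, 0 of 4 members were called by limma or by limma voom and 1 had an unadjusted p under 0.05, where 0.173% of all tested genes were called and 8.7% had such a p. That member was Plk3, at 5.86 ± 0.424 FPKM in WT-N and 7.10 ± 0.562 in WT-B (SD, n = 4 each). Every WT-N value lay below every WT-B value, as for 2.66% of all tested genes. The difference was -0.24 on the log2 scale (95% interval -0.43 to -0.05, unadjusted p = 0.0179, limma adjusted p = 0.479). Since Y-linked transcripts were near 0 in WT-N, this difference goes with them as well, and their part was not tested. Plk2 differed by -0.04 (95% interval -0.16 to 0.08, limma adjusted p = 0.899), Plk4 by -0.05 (-0.25 to 0.14, limma adjusted p = 0.935) and Plk5 by 0.15 (-0.09 to 0.39, limma adjusted p = 0.773). For Plk5 the water libraries are among those that chose the gene.

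In the knockout, 0 of 4 members were called by limma or by limma voom and 1 had an unadjusted p under 0.05, where 0.157% of all tested genes were called and 13.9% had such a p. Plk3 was at 5.80 ± 1.25 FPKM in DKO-N (SD, n = 3) and 4.77 ± 0.499 in DKO-B (SD, n = 4), a difference of 0.23 (95% interval 0.02 to 0.44, unadjusted p = 0.0351, limma adjusted p = 0.322). The groups overlapped, and the DKO-N mean rested on replicate 1. Without that library the difference was 0.08, and without DKO-N replicate 3 it was 0.32. Plk2 differed by 0.08 (95% interval -0.04 to 0.21, limma adjusted p = 0.582), Plk4 by -0.06 (-0.27 to 0.16, limma adjusted p = 0.847) and Plk5 by 0.20 (-0.06 to 0.46, limma adjusted p = 0.507). The Plk5 value was 0.06 without DKO-B replicate 3 and 0.28 without DKO-B replicate 4. The DKO-B libraries are among those that chose Plk5, so this comparison is not free of that choice. Y-linked transcripts were near 0 in DKO-N replicate 2 and in no DKO-B library, and their part was not tested.

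The interaction asks whether nicotine moved a gene differently in the 2 genotypes. For Plk3 it was 0.47 on the log2 scale (95% interval 0.18 to 0.75, unadjusted p = 0.00304, limma adjusted p = 0.581), since Plk3 was lower with nicotine in the wild type and higher with it in the knockout. Of 3 members tested 0 were called by limma or by limma voom and 1 had an unadjusted p under 0.05, where 0.0157% of all tested genes were called and 6.9% had such a p. Without DKO-N replicate 1 the Plk3 value was 0.32, and without DKO-N replicate 3 it was 0.56. Y-linked transcripts were near 0 in all WT-N libraries and in DKO-N replicate 2 alone among the knockouts, and their part in the interaction was not tested. The interaction was 0.13 for Plk2 (95% interval -0.05 to 0.30, limma adjusted p = 0.81), a value that was 0.06 without WT-N replicate 1. It was -0.0022 for Plk4 (-0.29 to 0.29, limma adjusted p = 0.998). Plk5 gave 0.04 (SE 0.17), with no test.

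The reads behind each gene limit how finely these levels could be read, and so does the spread between libraries. Plk2 stood on 3367 to 4465 reads per library, Plk3 on 186 to 335, Plk5 on 65 to 365 and Plk4 on 56 to 109. For Plk2, read counting alone gives a coefficient of variation (CV) of 1.58% to 1.70%, and libraries of a group varied by 2.73% to 9.62%. For Plk4, counting alone gives 10.6% to 11.0%, and the libraries varied by 10.8% in WT-B, 20.0% in WT-N, 16.1% in DKO-B and 21.4% in DKO-N. Plk3 in DKO-N varied by 21.6% where counting gives 6.28%, and Plk5 in DKO-B by 28.3% where counting gives 9.87%. The Plk5 value of DKO-B replicate 3 rested on 65 reads, against 111 to 120 in the other 3 libraries of that group. Counting values cover counting error only, since reads without molecular identifiers are not independent molecules.

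**Figure D3:**
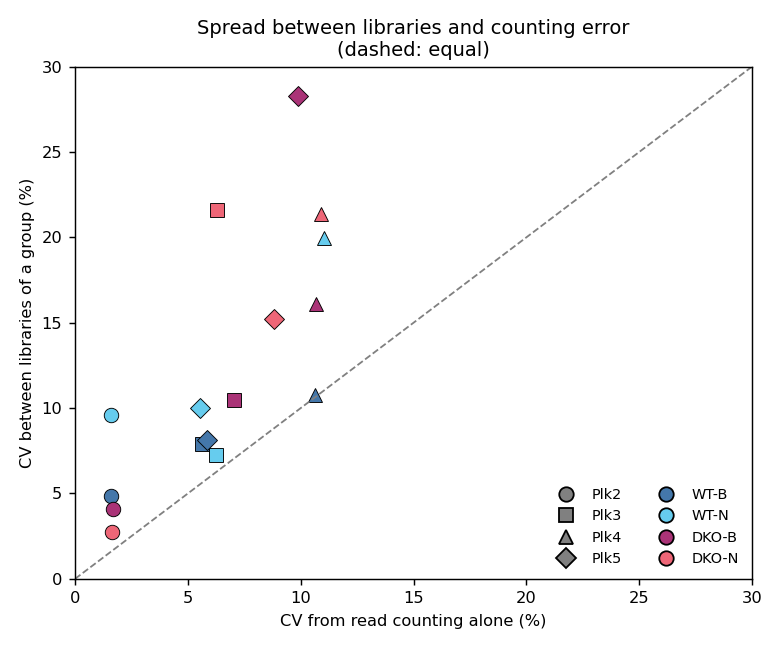
Coefficient of variation between the libraries of a group (vertical axis, percent) against the value expected from read counting alone (horizontal axis, percent), with 1 point per gene and group, the shape giving the gene and the colour the group. Plk4 in WT-B lies on the dashed line of equality at 10.8% and 10.6%, whereas Plk3 in DKO-N (21.6% against 6.28%) and Plk5 in DKO-B (28.3% against 9.87%) lie far above it.

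Activity-regulated genes, the class to which Plk2 and Plk3 are known to belong, were mostly lower in the knockout. Of 30 such genes, 23 fell and 5 rose in DKO-B against WT-B, with a median log2 difference of -0.56 against 0.05 over all tested genes, and 38% of all genes were called (25.5% higher and 12.4% lower). The 5 that rose were Jund, Bdnf, Nptx2, Vgf and Inhba, named after their values were seen. Only 3 rose after rescaling, or without any one of WT-B replicates 1, 3 and 4 and DKO-B replicates 1 and 3. Of all 12728 genes, 2322 rose and 2517 fell in water after rescaling, against 3252 and 1584 before it. Egr1 fell from 134 ± 12.8 to 48.8 ± 11.2 FPKM (limma adjusted p = 2.23e-06) and Arc from 104.2 ± 14.3 to 25.0 ± 11.2 (limma adjusted p = 0.000123; SD, n = 4 each). The difference of Plk2, -0.14, was smaller in size than the median of the list, and 23 of the 30 genes had a lower value. For Plk3, at -0.49, 17 of the 30 had a lower value. Under nicotine 10 of the 30 fell and 5 rose between the genotypes, with a median of -0.31 against 0.06 over all genes (24.6% of all genes rose and 11% fell), while Plk2 and Plk3 were at -0.01 and -0.02. With nicotine in the wild type 1 of the 30, Npas4, fell (median -0.18 against 0.0014), while 12 had an unadjusted p under 0.05. With nicotine in the knockout 0 were called by limma, 1 by limma voom, and 5 had an unadjusted p under 0.05. Such a p was found for 8.7% of all genes in the wild type and 13.9% in the knockout. For the interaction 0 of the 30 were called by limma, and 14 had an unadjusted p under 0.05, against 6.9% of all genes. The interaction median was 0.33 against 0.0058 over all genes, while Plk2 and Plk3 were at 0.13 and 0.47. The fall under nicotine depended on single libraries: 16 of the 30 fell without WT-N replicate 1, and 5 without DKO-N replicate 3.

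The summed level of the 30 activity-regulated genes was uneven among the WT-N libraries, at 539.7, 582, 764 and 775 FPKM in replicates 1 to 4. Plk2 was 65.1, 73.7, 80.0 and 80.5 FPKM in the same libraries, whereas Plk3 was 5.50, 6.34, 6.08 and 5.50. In WT-B the sum was 762 to 879 FPKM, in DKO-B 505.7 to 586 and in DKO-N 530.1 to 629. The library with the highest sum in DKO-N, replicate 1, was also the one with the highest Plk3, Plk2, Plk4 and Plk5. Their part in the differences of Plk2 and Plk3 was not tested.

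**Figure D4:**
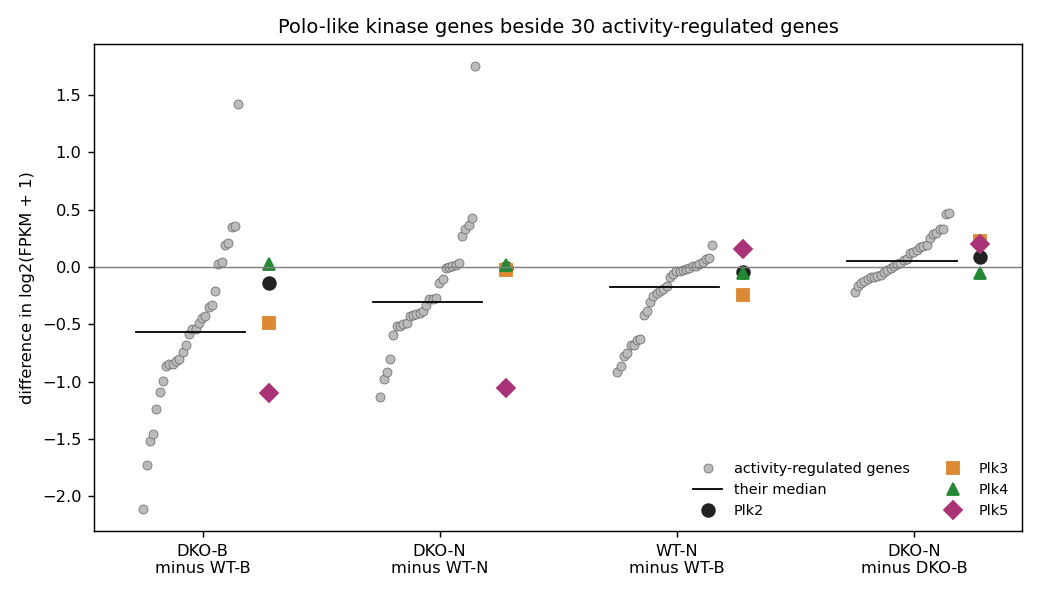
Difference in log2(FPKM + 1) (vertical axis) in 4 comparisons (horizontal axis) for 30 activity-regulated genes, shown as grey points in rising order with a line at their median, and for the 4 polo-like kinase genes as coloured symbols. In water Plk3 at -0.49 lies near the median of -0.56 and Plk2 at -0.14 above it, while Plk5 is at -1.10 and -1.05 in the genotype comparisons and at 0.15 and 0.20 in the nicotine comparisons.

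The genes whose pattern was most like that of each member were ranked by Pearson's r of log2(FPKM + 1) over the 15 libraries, which share the genotype contrast, so the values describe a likeness and are given without a test. For Plk2 they were Nab2 (r = 0.864), Chrm4 (0.844), Sik1 (0.843), Klf10 (0.838) and Egr2 (0.826). Nab2 encodes a corepressor of the Egr factors. It was at 17.8 ± 1.47 FPKM in WT-B, 17.8 ± 2.85 in WT-N, 14.9 ± 1.21 in DKO-B and 18.1 ± 1.2 in DKO-N. For Plk3 they were Ppm1k (r = 0.931), Cdc25b (0.886), Fn3krp (0.884), Spag6 (0.865) and Nap1l1 (0.85). Cdc25b, a phosphatase that activates cyclin-dependent kinases, was at 6.77 ± 0.505 FPKM in WT-B, 6.27 ± 0.392 in WT-N, 4.86 ± 0.264 in DKO-B and 6.27 ± 0.745 in DKO-N. Its lowest group mean was in DKO-B, as for Plk3. For Plk5 they were Khdrbs1 (r = 0.976), Kcnh3 (0.972), C130074G19Rik (0.969), Pak7 (0.969) and Cacnb3 (0.968). Kcnh3, a voltage-gated potassium channel, was at 38.5 ± 0.695 and 40.5 ± 0.992 FPKM in WT-B and WT-N, and at 24.9 ± 0.638 and 25.7 ± 1.38 in DKO-B and DKO-N. For Plk4 the values were lower, from 0.759 for Mdc1 through Gbe1 (0.729), Ankub1 (0.706) and Ccar2 (0.689) to 0.685 for Pex5.

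With the group means subtracted, so that only differences between libraries of a group count, other genes led. They were Zcchc10, Ddit4, Irf2bpl, Unc119b and Apold1 for Plk2 (r = 0.908 to 0.877), and Map7, Hnrnpa2b1, Zfp7, Mfap1b and Gpr135 for Plk3 (0.903 to 0.86). They were Map3k3, Dpf2, Ercc4, Zfp597 and Tnfrsf25 for Plk4 (0.893 to 0.82), and Tmod1, Ppa2, Ndufb8 and Plekhd1 for Plk5 (0.894 to 0.875). None of these was among the first 5 genes over all 15 libraries. Among the members themselves, r after the group means were subtracted was 0.528 for Plk3 and Plk5, 0.38 for Plk3 and Plk4 and 0.201 for Plk2 and Plk3. It was 0.060 for Plk2 and Plk5, -0.020 for Plk2 and Plk4 and -0.075 for Plk4 and Plk5.

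In DKO-B against WT-B 12.4% of all genes fell and 25.5% rose. Among 19 genes of the synaptic substrates and partners of Plk2, 9 fell and 4 rose in that comparison. Their median log2 difference was -0.10 against 0.05 over all genes. The Ras and Rap regulators Sipa1l1 and Rasgrf1 and the Cdk5 activators Cdk5r1 and Cdk5r2 were among those that fell, and Rap1a, Rap1b, Gria1 and Cib1 rose; these were named after their values were seen. Without WT-B replicate 4, 2 rose. Under nicotine 9 fell and 3 rose (median -0.08 against 0.06), where 11% of all genes fell and 24.6% rose. Under nicotine 5 fell and 1 rose without DKO-N replicate 3, and 5 fell and 2 rose without DKO-N replicate 1. After rescaling the libraries by median-of-ratios factors 10 fell in both conditions, and 1 rose in water and 0 under nicotine. Falls were also more frequent over all 12728 genes in the rescaled fit. There 2517 fell and 2322 rose in water, against 1584 and 3252 before rescaling. Under nicotine 2413 fell and 2001 rose, against 1405 and 3133. Dlg4, the postsynaptic scaffold PSD-95, was at 224 ± 5.17 FPKM in WT-B and 198 ± 5.74 in DKO-B (limma adjusted p = 0.00126). Nsf, the vesicle fusion ATPase, was at 292 ± 7.11 and 272 ± 8.95 (limma adjusted p = 0.0245), and Sncb, beta-synuclein, at 342 ± 13.8 and 353 ± 14.2 without a call (SD, n = 4 each).

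Of 18 genes of stress signalling tied to Plk3, 16 passed the filter, and 6 rose and 5 fell in DKO-B, with a median of -0.02 (after rescaling, 2 rose and 6 fell). Without WT-B replicate 4, 3 rose. The 5 that fell were the Jun kinases Mapk8, Mapk9 and Mapk10, their upstream kinase Map2k4, and the stress factor Atf4. The same 5 fell under nicotine. The 6 that rose in water were Jun, Hif1a, Vrk1, Cib1, Hspa5 and Ddit3, of which Jun, Hif1a and Ddit3 also rose under nicotine. Of all tested genes 25.5% rose and 12.4% fell in water, and 24.6% and 11% under nicotine. Hspa5 was at 74.0 ± 3.54 FPKM in WT-B and 87.6 ± 13.1 in DKO-B, with overlap (SD, n = 4 each, limma adjusted p = 0.0346). Mapk10 was at 71.3 ± 2.08 FPKM in WT-B and 58.0 ± 2.32 in DKO-B (limma adjusted p = 4.7e-06), and Atf4 at 78.7 ± 2.45 and 64.2 ± 1.77 (limma adjusted p = 6e-06; SD, n = 4 each). Of 20 p53 targets, a class that includes Plk2 and Plk3 by background knowledge (both left out of the list), 18 passed the filter. In DKO-B 3 rose (Cdkn1a, Perp and Fas) and 4 fell (Ccng1, Btg2, Phlda3 and Zmat3), with a median of 0.07 against 0.05 over all genes. The share called in water was near the 38% of all genes. Without DKO-B replicate 1 or DKO-B replicate 4, 1 rose. Under nicotine 4 of the p53 targets rose and 2 fell, where 35.7% of all genes were called. After rescaling 2 rose and 5 fell in water, and 4 rose and 5 fell under nicotine. The rescaled fit called 4839 of all 12728 genes in water (2322 higher and 2517 lower). Under nicotine it called 4414 (2001 higher and 2413 lower).

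Of 22 genes of centriole duplication, where Plk4 acts, 16 passed the filter. In DKO-B Ccp110 and Cetn2 rose and Btrc and Fbxw11 fell, with 12 not called, where 38% of all genes were called, and the median was 0.03 against 0.05 over all genes. Btrc and Fbxw11 encode the substrate-binding parts of the ubiquitin ligase known to mark Plk4 for breakdown. Fbxw11 was at 34.4 ± 0.725 FPKM in WT-B and 30.3 ± 0.793 in DKO-B (SD, n = 4 each; limma adjusted p = 0.000933). In the same groups Fbxw5 was at 38.4 ± 0.701 and 37.2 ± 1.47 (limma adjusted p = 0.472). Cetn2 was at 22.85 ± 1.16 in WT-B and 27.3 ± 1.01 in DKO-B (limma adjusted p = 0.00434). Under nicotine Ccp110, Cep120, Cep97 and Cetn2 rose, and Btrc and Fbxw11 fell, a share of the 16 genes near the 35.7% of all genes called. After rescaling the counts were 2 and 2 in water and 3 and 3 under nicotine. Over all 12728 genes that fit called 2322 higher and 2517 lower in water, and 2001 and 2413 under nicotine. Of 26 mitotic genes of the Plk1 pathway, 7 passed the filter, and Anln rose and Incenp, Cdc25b and Wee1 fell in DKO-B. In that comparison 25.5% of all genes rose and 12.4% fell. Under nicotine Wee1 alone of the 7 fell, and none was called without DKO-N replicate 3. In water 2 fell and 0 rose without any one of WT-B replicates 1, 3 and 4 and DKO-B replicates 2 and 4.

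Of 19 genes of neurite growth, a process tied to Plk5, 18 passed the filter, and 11 fell and 2 rose in DKO-B, with a median of -0.14 against 0.05 over all genes. Of all genes 12.4% fell and 25.5% rose in water, and 11% and 24.6% under nicotine. Marcks and Nefh rose, and 1 gene rose without WT-B replicate 4. Under nicotine 7 fell, and Ncam1, Marcks and Cntn2 rose, with a median of -0.10 against 0.06, and after rescaling 10 fell and 0 rose. Of all 12728 genes, 2413 fell and 2001 rose under nicotine after rescaling, against 1405 and 3133 before it. Without WT-N replicate 4 or DKO-N replicate 3, 4 fell under nicotine. Basp1, a growth-cone protein, was at 363 ± 10.5 FPKM in WT-B and 324 ± 11.8 in DKO-B (limma adjusted p = 0.00241), while Tubb3, at 201 ± 10.5 and 199 ± 9.22, and Stmn2, at 187 ± 6.17 and 193 ± 10.5, were not called (SD, n = 4 each). With nicotine in either genotype, 0 genes of the lists for Plk2 partners, Plk3 stress signalling, p53 targets, centrioles, mitosis and neurite growth were called by limma. In the same order, 1, 1, 3, 0, 1 and 1 of their genes had an unadjusted p under 0.05 in the wild type and 3, 3, 4, 3, 2 and 5 in the knockout. These lists held 19, 16, 18, 16, 7 and 18 tested genes. Over all genes the share with such a p was 8.7% in the wild type and 13.9% in the knockout. Limma voom called 1 p53 target and 1 neurite gene in the knockout.

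Markers of other cells moved between the genotypes beside these genes. Of all tested genes 25.5% rose in water and 24.6% under nicotine. In DKO-B the 7 microglial markers all rose, from a summed 101 to 114 FPKM in WT-B to 340 to 398, and the 7 astrocyte markers all rose, from a summed 692 to 776 FPKM to 1206 to 1315. Of 8 markers of inhibitory neurons 7 rose (610 to 686 FPKM in WT-B, 716 to 887 in DKO-B), and of 8 markers of striatal neurons 5 rose (156 to 226 FPKM in WT-B, 227 to 387 in DKO-B). The striatal count was 1 without DKO-B replicate 2 or 4, 2 without WT-B replicate 4 and 3 without DKO-B replicate 1. Of 7 oligodendrocyte markers 5 rose (842 to 947 FPKM in WT-B, 943 to 1175 in DKO-B), and of 6 endothelial markers 3 rose (57.9 to 63.4 FPKM in WT-B, 77.4 to 95.0 in DKO-B). Under nicotine 7 of 7 astrocyte, 5 of 7 microglial, 4 of 8 inhibitory, 4 of 7 oligodendrocyte and 2 of 6 endothelial markers rose. The striatal markers were at 162 to 285 FPKM in WT-N and 187 to 274 in DKO-N, with 0 of 8 called by limma and 0 with an unadjusted p under 0.05. With nicotine in the knockout their median log2 difference was -0.42 against 0.0076 over all genes. In that comparison 0 of 8 were called by limma and 4 had an unadjusted p under 0.05, as did 13.9% of all genes. The part of these markers in the member differences was not tested.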

How the data were processed

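Gene-level FPKM values were deposited by the authors, 1 file for each library. Reads were placed on GRCm38.p6, per the submitters' processing notes, and libraries were made with a stranded mRNA kit, per the labels' protocols. The sources used here name no aligner or counting tool, nor whether strand was used. The deposited FPKM values of 100% of tested genes were whole multiples of 1 read within 0.02 reads, which gave read numbers per gene.

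Genes reaching 1 FPKM in 3 or more libraries were analysed as log2(FPKM + 1). Limma 3.58.1 in R 4.3.3 was fitted with an intensity trend to all 15 libraries, 1 coefficient for each group, without blocking, and p-values adjusted by Benjamini-Hochberg across 12728 genes. A call is an adjusted p under 0.05. The plan named a count model only if the files held counts. Promoter windows are from RefSeq, in which all 4 genes matched. The functions were tested on simulated reads. Python 3.11.15, pandas 2.3.3 and matplotlib 3.10.9 made the other tables and plots.

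The members, lists, motifs and Y-linked genes were chosen with earlier results of these data known. Named genes are the members, Psen2, up to 3 genes per list with the highest mean level, the 5 genes most like each member, and neighbours; 1 gene of the likeness ranking is not reported here. Other genes named from a list were named after their values were seen. The alternatives tried were limma voom on the recovered reads, rescaling by median-of-ratios factors, a 0.1 pseudocount, fits of the 2 groups alone, the replicate number as a block, dropping the trend or the filter, raising the filter to 5 FPKM, and leaving out each library.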

Additional observations from a re-analysis of the deposited data

Results flagged for a closer look

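In 2 of 12 groups of 4 libraries examined, 1 library stood apart from the other 3, both for Plk4. In WT-B, replicate 1 was at 1.34 FPKM (104 reads) with the others at 1.07 to 1.11, a gap of 0.861 of the range of the group. In WT-N, replicate 2 was at 0.759 FPKM (56 reads) with the others at 1.15 to 1.22, a gap of 0.851 of the range. The critical value for 4 libraries is 0.829, and chance flags about 1 in 20 groups. Both libraries belong to the gene with the fewest reads.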

How the results depend on the processing

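None of the 14 tested member results was called under any alternative that could be fitted; the other member results have no test. The genotype difference of Plk5 was -1.10 in water, against -1.43 with a pseudocount of 0.1 and -1.49 with limma voom, and -1.05 under nicotine, against -1.31 and -1.35. Values near 0 changed sign: Plk4 was -0.0127 in water and -0.0214 under nicotine after rescaling, its interaction 0.0018 with a pseudocount of 0.1, and Plk2 under nicotine 0.0091 with the replicate block. Equal replicate numbers did not deviate together (correlations -0.21 to 0.16), so the block has no basis in the design. The block left 15 calls for nicotine in the knockout against 20 and 1 for the interaction against 2. Rescaling turned the split of genotype calls from 3252 higher and 1584 lower to 2322 and 2517 in water, and from 3133 and 1405 to 2001 and 2413 under nicotine. Calls for nicotine in the knockout were 13 without the intensity trend, 0 with only the groups compared and 87 with limma voom. Calls for the interaction were 1 after rescaling, with no filter, without the trend and with the block.

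Leaving out 1 library at a time gave, for the genotype difference in water, -0.032 to 0.0692 for Plk4. Under nicotine it gave -0.0779 to 0.0232 for Plk2, -0.17 to 0.0697 for Plk3 and -0.0629 to 0.0986 for Plk4. For nicotine in the wild type the ranges were -0.0798 to 0.0212 for Plk2 and -0.0881 to 0.0244 for Plk4, and in the knockout -0.1392 to 0.0222 for Plk4. For the interaction they were -0.0852 to 0.0762 for Plk4 and -0.0947 to 0.1282 for Plk5. Calls ranged from 1 (without DKO-B replicate 1 or 3) to 57 (without DKO-N replicate 3) for nicotine in the knockout, and from 1 to 6 (without DKO-N replicate 2) for the interaction. The cause of these shifts was not tested. Plk4 was not tested at the 5 FPKM filter, and a fit with only the groups compared does not exist for the interaction. Plk4 stood on 56 to 109 reads per library.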
